A study of Mus musculus with 4 samples.

Results

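A 20 Mb stretch of mouse chromosome 9, from 40 to 60 Mb in the mm9 genome build, was followed in sorted lung epithelial cells of Tlr3-deficient and wild-type (WT) mice. Its members were all gene names that the array annotation places in this stretch, apart from a short list of names set aside (those starting with Cyp or Ift, and Hspa8, Cd3e, Cd3g, Loxl1 and Zbtb16). Of 316 gene names on the segment, 9 were set aside in this way and 78 were not well above background on any array, which left 229 members of the 27365 gene names on the array. A gene was represented by its brightest probe. The segment was chosen with the genotype differences with and without tumor already known, so those differences describe the members and support nothing.

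Alveolar type II cells, the epithelial cells that make surfactant, were sorted by flow cytometry from lungs of mice labelled female. The 4 groups were Tlr3-deficient mice and WT mice that carried a tumor of Lewis lung carcinoma (a lung cancer line from mice), 2 weeks after its subcutaneous injection, and Tlr3-deficient mice and WT mice that received no tumor cells. Each group had 1 array, which leaves every difference without replicates, and neither a p-value nor an SD over animals is given. The labels give neither the strain, the age, the part of Tlr3 that is deleted nor how many mice went into an array, and no sequence variants of the mice were measured.

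Neighbouring genes on a chromosome tend to be inherited together, so a line of mice made in one inbred strain and bred into another can keep a stretch of the first strain's chromosome. Within such a stretch, promoter and enhancer variants can change how much RNA a gene makes. Variants within a transcript can also change how well it binds an array probe, since each probe is a short oligonucleotide copied from a reference sequence. None of these routes can be read from a signal alone.

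Levels below are log2 of the processed Cy3 signal minus the array's own 75th percentile, which was 904 and 796 intensity units on the Tlr3-deficient and WT arrays with tumor, and 758 and 555 on the Tlr3-deficient and WT arrays without tumor. Between 61.0% and 65.4% of gene spots were well above background on an array. The alveolar type II markers were above background on every array, 10 of 10, with Sftpc, the surfactant protein C gene, at 555 to 665 times the 75th percentile on the tumor arrays and 710 and 486 times on the Tlr3-deficient and WT arrays without tumor. Both Tlr3 probes (chromosome 8) were lower in Tlr3-deficient cells, by -1.35 and -1.26 log2 units with tumor and by -1.52 and -1.54 without tumor. Without tumor neither probe was well above background in Tlr3-deficient cells (-5.36 and -6.29), so the differences there are raw values against a dim signal. Whether these probes lie in the deleted part is not given. The array labelled Tlr3-deficient without tumor goes against its label of female: transcripts of the Y chromosome (Uty, Kdm5d, Eif2s3y and Ddx3y) were well above background there and on no other array, and Xist, made in female cells, read 0.06 times the 75th percentile there, against 14.8 to 17.6 times on the other arrays. Most genotype differences are therefore given both with tumor, which does not use that array, and without tumor, which does. For some members called in a single state the difference is given in that state only. The tumor difference in Tlr3-deficient cells uses that array as well.

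Of the 229 members, 12 differed by at least 2-fold between genotypes in the same direction both with and without tumor, 3 of them higher in Tlr3-deficient cells and 9 lower. The probes that read them are printed here because every value for these genes rests on 1 such oligonucleotide of 60 bases. They are given 5′ to 3′ as in the deposited scanner files, in lower case with no base marked, and in order along the chromosome.
NAP049942-1: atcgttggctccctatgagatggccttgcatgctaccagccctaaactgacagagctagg
TC1634701: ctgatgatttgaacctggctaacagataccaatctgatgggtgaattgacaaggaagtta
Ccdc153: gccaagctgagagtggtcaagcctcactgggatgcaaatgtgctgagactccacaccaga
Bcl9l: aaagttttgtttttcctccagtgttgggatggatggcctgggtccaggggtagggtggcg
Tmprss13: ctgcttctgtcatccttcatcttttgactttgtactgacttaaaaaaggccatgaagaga
AK077428: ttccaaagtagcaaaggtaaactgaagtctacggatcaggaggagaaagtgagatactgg
Nxpe4: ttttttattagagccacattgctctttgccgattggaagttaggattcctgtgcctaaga
Nnmt: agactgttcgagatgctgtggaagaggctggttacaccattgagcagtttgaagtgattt
Il18: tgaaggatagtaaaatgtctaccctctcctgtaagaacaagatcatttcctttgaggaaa
Layn: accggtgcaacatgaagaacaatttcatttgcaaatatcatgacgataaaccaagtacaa
Hoatz: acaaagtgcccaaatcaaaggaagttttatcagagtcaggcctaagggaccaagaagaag
Hykk: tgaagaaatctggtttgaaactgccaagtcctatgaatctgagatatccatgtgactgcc

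The G and C content of these 12 probes ran from 35% to 55% with a median of 42.5%, against 23.3% to 58.3% with a median of 43.3% for the probes of the other 217 members. On the plus strand lay 6 of the 12, and 102 of the other 217. The Il18, Layn and Hoatz probes map across more genome than their 60 bases, as a probe over a splice junction does. Whether a probe lies in an exon or an untranslated region was not annotated here.

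Among the 3 genes that were higher in Tlr3-deficient cells, Il18 encodes a proinflammatory cytokine of the interleukin-1 family. Its probe (chr9:50387470-50389598, plus strand) read -0.50 in Tlr3-deficient and -2.36 in WT cells with tumor, and -1.33 in Tlr3-deficient and -3.10 in WT cells without tumor. Both Tlr3-deficient arrays lay above both WT arrays, as they did for 13.1% of all genes, while they lay below both WT arrays for 19.7%. For a member called in both tumor states such a gap follows largely from the choice and is a description. The difference was 1.86 ± 0.21 with tumor (3.62-fold) and 1.77 ± 0.23 without tumor (3.41-fold), where the error is that of the scanner's error model and covers spots, not animals. Il18 is also read by 10 spots of the same probe on each array. These ran from -0.58 to -0.43 in Tlr3-deficient and from -2.44 to -2.25 in WT cells with tumor, and from -1.51 to -1.24 in Tlr3-deficient and from -3.50 to -2.84 in WT cells without tumor. No spot of one genotype overlapped the spots of the other in the same tumor state.

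Layn encodes layilin, a membrane protein that binds hyaluronan. Its probe (chr9:50871363-50876188, minus strand) read -2.73 in Tlr3-deficient and -4.39 in WT cells with tumor, and -2.51 in Tlr3-deficient cells without tumor, while it was not well above background in WT cells without tumor (-5.07). The level was 3.15-fold higher in Tlr3-deficient cells with tumor and at least 5.92-fold higher without tumor. Such a bound compares the brighter signal with the dim signal or, if that is larger, with the lowest signal of any probe well above background on the dim array. It is used in the same way for the fold change of every such member. The other higher member, NAP049942-1 (chr9:41777399-41777458, minus strand), has no annotation in the files. It read -2.56 in Tlr3-deficient and -3.64 in WT cells with tumor, and -2.92 in Tlr3-deficient and -3.99 in WT cells without tumor. Its differences of 1.07 and 1.06 were the nearest of the higher genes to the 2-fold threshold.

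Of the 9 lower members 2 encode metabolic enzymes, and for both the Tlr3-deficient arrays lay below the WT arrays. Nnmt, nicotinamide N-methyltransferase, methylates nicotinamide and so draws on the methyl donor S-adenosylmethionine. Its probe (chr9:48400115-48400174, minus strand) read -3.20 in Tlr3-deficient and -1.43 in WT cells with tumor, and -3.01 in Tlr3-deficient and -1.25 in WT cells without tumor. The differences, -1.77 ± 0.22 and -1.76 ± 0.22, amount to 3.40-fold and 3.39-fold lower levels in Tlr3-deficient cells. Hykk, hydroxylysine kinase, named Agphd1 on the array, acts in the breakdown of hydroxylysine. The Hykk probe (chr9:54794279-54794338, plus strand) was not well above background in Tlr3-deficient cells with (-7.02) or without tumor (-6.04), and read -2.83 in WT cells with tumor and -2.02 in WT cells without tumor. Hykk was at least 5.65-fold lower in Tlr3-deficient cells with tumor and at least 8.63-fold lower without tumor. A second Hykk probe (chr9:54768202-54768261) was not well above background on any array, and with the mean of both probes the with-tumor call was lost.

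Bcl9l encodes a coactivator of beta-catenin in Wnt signaling. Its probe (chr9:44317916-44317975, plus strand) read -1.95 in Tlr3-deficient and -0.31 in WT cells with tumor, and -1.66 in Tlr3-deficient and 0.07 in WT cells without tumor. That is 3.13-fold lower with tumor and 3.33-fold lower without tumor. Tmprss13 encodes a serine protease anchored in the cell membrane. The Tmprss13 probe (chr9:45155250-45155307, plus strand) read -3.45 in Tlr3-deficient and -1.69 in WT cells with tumor, and without tumor it was not well above background in Tlr3-deficient cells (-6.42) and read -3.16 in WT cells. Tmprss13 was thus 3.39-fold lower in Tlr3-deficient cells with tumor and at least 3.93-fold lower without tumor. It was also the only one of the 12 called between mice with and without tumor: its level was at least 3.21-fold higher with than without tumor in Tlr3-deficient cells, and 2.77-fold higher in WT cells.

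Ccdc153 and Hoatz are genes of motile cilia, the beating hairs of airway ciliated cells. Ccdc153 (chr9:44054861-44054920, plus strand) read 3.37 in Tlr3-deficient and 4.91 in WT cells with tumor, and 2.68 in Tlr3-deficient and 4.10 in WT cells without tumor. The level was 2.91-fold lower with tumor and 2.69-fold lower without tumor. Hoatz, named 4833427G06Rik on the array (chr9:50889595-50891702, minus strand), read 0.12 in Tlr3-deficient and 1.31 in WT cells with tumor, and -0.39 in Tlr3-deficient and 1.02 in WT cells without tumor, which is 2.28-fold and 2.65-fold lower. For both genes every Tlr3-deficient array lay below every WT array. The ciliated-cell markers Foxj1, Tekt1, Dnah5 and Ccdc39, 4 of 4 above background on each array, were lower in sum as well: their summed level was 12.6 times the 75th percentile in Tlr3-deficient and 19.4 times in WT cells with tumor, and 8.98 times in Tlr3-deficient and 12.6 times in WT cells without tumor. Of the 4, Ccdc39 went the other way without tumor, at 0.476 times in Tlr3-deficient and 0.408 times in WT cells, and was at 0.536 and 0.894 times with tumor. The part of ciliated cells in the result was not tested, and in sorted cell pools fewer cells of a type and less RNA per cell cannot be told apart.

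The last 3 lower members carry little or no functional annotation. Nxpe4, a member of a family with neurexophilin and PC-esterase domains (chr9:48207362-48207421, plus strand), was not well above background in Tlr3-deficient cells with (-7.35) or without tumor (-7.04), and read -3.69 in WT cells with tumor and -4.04 in WT cells without tumor. That gives levels at least 3.12-fold and at least 2.13-fold lower. TC1634701 (chr9:43965475-43965534, minus strand) has the same pattern, at -7.36 and -7.03 in Tlr3-deficient cells with and without tumor, both not well above background, and at -2.90 in WT cells with tumor and -2.87 in WT cells without tumor. It was at least 5.39-fold lower with tumor and at least 4.81-fold lower without tumor. The files describe this transcript by its likeness to a part of the Chpt1 protein while mapping the probe to chromosome 9, so it is given by its identifier. AK077428, a full-length cDNA with no assigned product (chr9:45666831-45666890, minus strand), read 0.82 in Tlr3-deficient and 1.85 in WT cells with tumor, and 0.79 in Tlr3-deficient and 1.88 in WT cells without tumor, differences of -1.03 and -1.09.

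**Figure D1:**
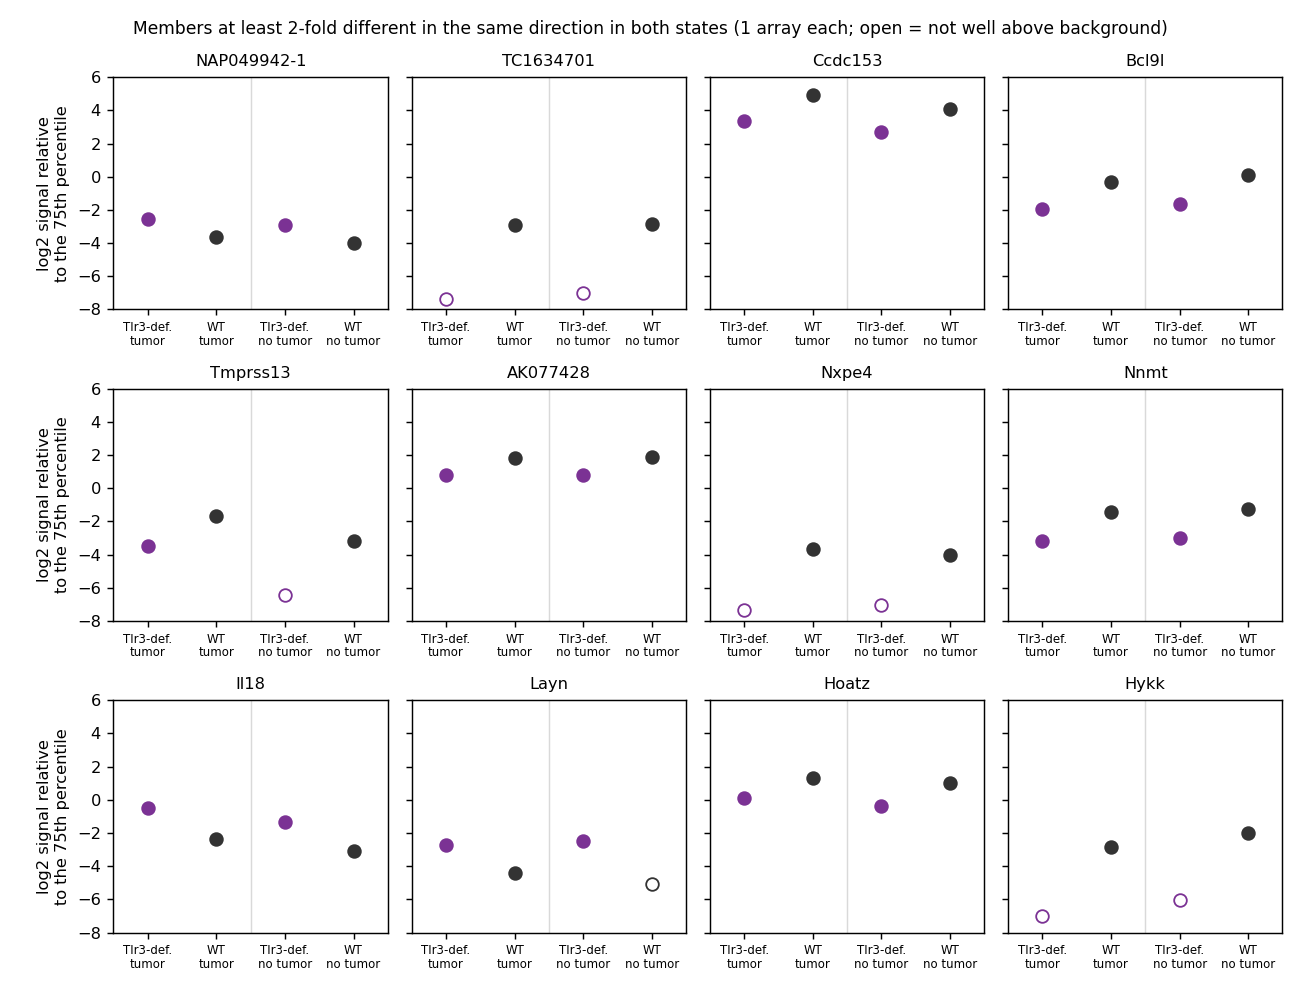
Level of the 12 members that differed by at least 2-fold in the same direction in both tumor states, as log2 signal relative to the array's 75th percentile (y axis), on the 4 arrays (x axis; purple, Tlr3-deficient; black, WT; 1 array per point). Open points were not well above background. NAP049942-1, Il18 and Layn are higher in Tlr3-deficient cells in both pairs and the other 9 are lower.

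Some of these calls depended on the processing. With normexp background correction, which adds an offset that shrinks differences of dim probes, 7 of the 12 remained and Hoatz, AK077428, Layn, NAP049942-1 and Nxpe4 did not. NAP049942-1 was also under 2-fold without tumor after quantile normalization (0.91) and in the authors' own value table (0.90). With the mean of all probes of a gene, Hykk and Nxpe4 were lost and 10 remained. Of the 12, 7 were well above background on all 4 arrays, and for none of them was a second probe above background on all 4.

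With tumor, 22 of the 221 members tested differed by at least 2-fold between genotypes, 9 higher and 13 lower in Tlr3-deficient cells, which is 9.95% beside 5.54% of all 18103 genes tested (2.93% higher and 2.61% lower). Without tumor it was 31 of 219 members, 19 higher and 12 lower, or 14.2% beside 8.26% of all 17471 genes (5.91% higher and 2.35% lower). The 12 members called the same way in both states are 5.24% of 229, beside 1.04% of all 18690 genes (0.519% higher and 0.524% lower). The median absolute log2 difference of the members was 0.240 with tumor and 0.357 without tumor, beside 0.199 and 0.292 for all genes, while their median signed difference was near 0 in each state (-0.06 with tumor and -0.03 without tumor, beside -0.04 for all genes in each). Since the segment was chosen from these contrasts, the higher shares say how it was chosen and are read no further. The split between higher and lower members varied with the processing. With tumor normexp gave 3 higher and 8 lower, averaging all probes of a gene gave 11 and 11, and the 106 members read in array columns 52 to 85 gave 8 and 3. Without tumor it was 16 higher and 15 lower after median centring and 4 and 4 in those columns. Columns up to 51 were left out there as noisy, and the probes of 3 of the 12 members lie in the columns kept. In those columns 8 of 101 members tested were called without tumor, or 7.92%, below the 8.26% of all genes on the whole array. With tumor it was 11 of 104, or 10.6%.

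Across the 192 members above background on all 4 arrays, the genotype difference with tumor and the one without tumor correlated at r = 0.477 (rank correlation 0.454). The 2 differences share no array, but each pair of values comes from the same probe. The same correlation was 0.583 (rank 0.387) over 654 genes on the rest of chromosome 9 and 0.290 (rank 0.195) over 14454 genes of other chromosomes. Over single other chromosomes it ran from 0.095 on chromosome 16 to 0.631 (rank 0.318) on chromosome 15. In the 20 Mb after the segment it was 0.694 (rank 0.317). The segment was chosen from these differences, so its correlation is a description.

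**Figure D2:**
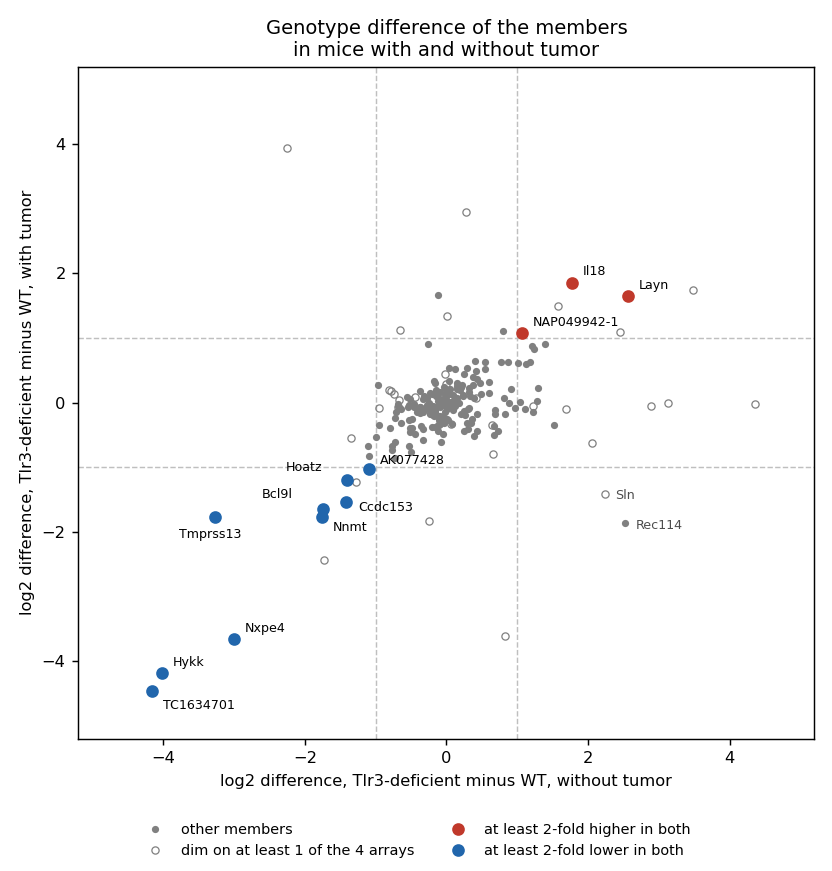
Log2 difference between Tlr3-deficient and WT cells without tumor (x axis) and with tumor (y axis), 1 point per member, at measured values. Dashed lines mark 2-fold; open points were dim on at least 1 array. The 3 red and 9 blue points differed by at least 2-fold in the same direction in both states, while Rec114 and Sln lie at the lower right, lower with tumor and higher without tumor.

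The differences were uneven along the segment. All 12 members lay between 41.8 and 54.8 Mb, a span of 13.0 Mb that holds 144 members, in 6 of the 10 windows of 2 Mb. From 40 to 56 Mb there were 168 members, of which the 12 make 7.14%, with a median absolute difference of 0.308 with tumor and 0.437 without tumor. From 56 to 60 Mb none of 61 members was called in both. The cut at 56 Mb is the first window edge past the last of the 12, so that absence follows from where it was set. The medians there were 0.106 with tumor and 0.250 without tumor, below those of all genes. Medians of both parts are over all their members, while those of all genes are over tested genes. The window from 40 to 42 Mb, with 12 members and NAP049942-1 among them, had the largest median difference of the 10 windows in each state, 0.405 with tumor and 0.865 without tumor, and 1 and 3 of its members were called. The window from 44 to 46 Mb, the most crowded with 51 members, held Ccdc153, Bcl9l, Tmprss13 and AK077428, all lower in Tlr3-deficient cells. The window from 50 to 52 Mb held Il18 and Layn, both higher, and Hoatz, which was lower although its probe follows that of Layn directly among the members. In that window 5 of 33 members were called with tumor and 10 without tumor, and its median absolute difference was 0.371 with tumor and 0.662 without tumor. The window from 48 to 50 Mb held Nxpe4 and Nnmt among 11 members, and the windows from 46 to 48 and from 52 to 54 Mb held none of the 12.

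**Figure D3:**
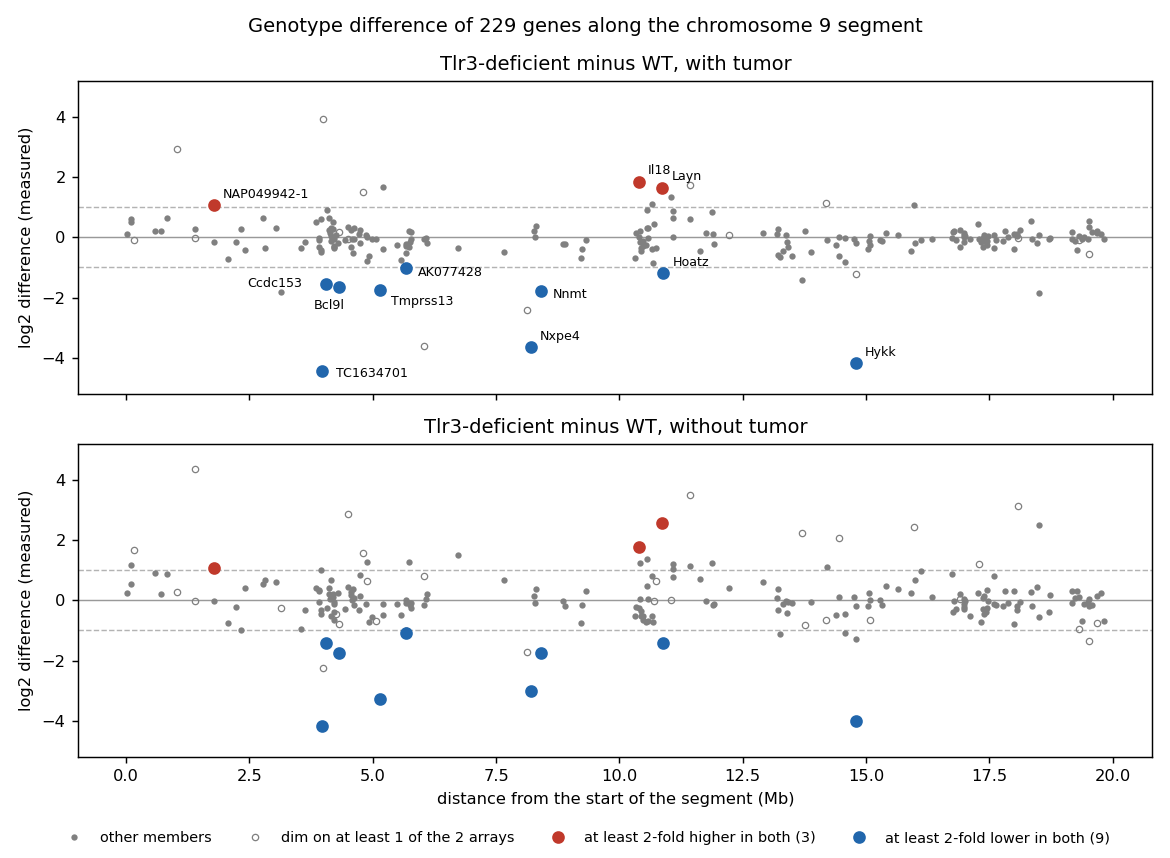
Log2 difference between Tlr3-deficient and WT cells of the 229 members (y axis) against the distance from the start of the segment (x axis), with tumor above and without tumor below. Red and blue points are the 3 higher and 9 lower members called in both states; open points were dim on at least 1 of the 2 arrays. Coloured points end before 15 Mb, and in the upper panel the points beyond 16 Mb cluster near 0 apart from Rec114.

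The genes nearest the 2 ends were read on both sides. Just inside the lower end, Zfp202 differed by 0.11 with tumor and 0.24 without tumor, and Scn3b, a sodium channel beta subunit, by 0.62 and 1.18, and just outside it NAP030161-1 differed by -0.04 and -0.35 and 1700001J11Rik by -0.63 and -0.39. Just inside the upper end, Thsd4 differed by -0.07 with tumor and -0.67 without tumor and AK084027 by 0.13 and 0.24, and just outside it 9230112J17Rik differed by -0.06 and -0.11 and Lrrc49 by 0.01 and 0.10. Past the upper end, in the next 20 Mb, 6 of 161 genes (3.73%) were called the same way in both states, all 6 lower in Tlr3-deficient cells. In the 20 Mb before the segment it was 0 of 165, and the median difference there was 0.015 with tumor and -0.0053 without tumor. The rest of chromosome 9 as a whole had 13 of 781 (1.66%) and the other chromosomes 163 of 17212 (0.947%), with a range over single chromosomes from 0 on chromosome 18 to 2.99% on chromosome 15 and a median of 0.749%.

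**Figure D4:**
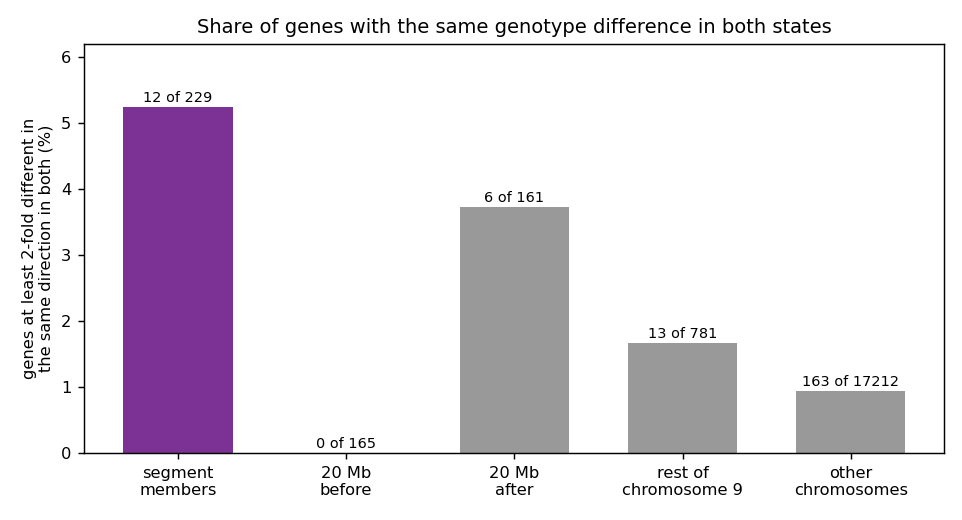
Share of genes that differed by at least 2-fold between Tlr3-deficient and WT cells in the same direction both with and without tumor (y axis, percent), for the segment's members, its flanks of 20 Mb, the rest of chromosome 9 and the other chromosomes, with counts above the bars. The members stand at 5.24% and the 20 Mb after the segment at 3.73%; the segment was chosen from these differences.

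The 6 members that came nearest to being called in both states passed 2-fold in 1 of them. AY074887, whose probe follows that of Hykk (chr9:54798235-54798294), was not well above background in Tlr3-deficient cells with tumor (-5.57), and read -4.35 in WT cells with tumor, -4.60 in Tlr3-deficient and -3.32 in WT cells without tumor. It was at least 1.97-fold lower with tumor and 2.43-fold lower without tumor. Hspb2, a small heat shock protein gene of muscle, read 1.15 in Tlr3-deficient and 0.25 in WT cells with tumor, and 1.45 in Tlr3-deficient and 0.06 in WT cells without tumor, differences of 0.90 and 1.39. Dnaja4, a co-chaperone of Hsp70, differed by -0.83 with tumor and -1.09 without tumor. The cDNA-based names 2010007H06Rik (0.87 with and 1.21 without tumor), 9830163H01Rik (0.84 and 1.24) and C130081A10Rik (1.11 and 0.80) were all higher in Tlr3-deficient cells.

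In 108 members more than 1 probe of the gene lay on the segment, and these let the members be read a second time. In 4 genes a dimmer probe passed 2-fold in the same direction in both states where the brightest probe did not. Counting brightest and dimmer probes together, 16 of 362 probes of members above background on at least 1 array passed in both states (4.42%), beside 1.01% of all 28384 probes. Of the 16, only 4 were not the brightest probe, and the others are those of the members already called above. Since the segment was chosen from these differences, this share is read no further. The probes of Pih1d2 and Rps25 are shown because each pair belongs to 1 gene and gave unlike differences.
Pih1d2, brightest probe: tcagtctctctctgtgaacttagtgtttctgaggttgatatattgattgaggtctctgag
Pih1d2, dimmer probe: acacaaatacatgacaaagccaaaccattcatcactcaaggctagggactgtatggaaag
Rps25, brightest probe: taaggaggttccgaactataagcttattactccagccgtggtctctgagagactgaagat
Rps25, dimmer probe: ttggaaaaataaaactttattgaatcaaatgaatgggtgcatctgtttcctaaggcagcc

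Pih1d2 encodes a protein with a PIH1 domain. Its dimmer probe (chr9:50430317-50430376, plus strand) read -4.42 in Tlr3-deficient and -1.61 in WT cells with tumor, and -4.79 in Tlr3-deficient and -2.42 in WT cells without tumor, 7.03-fold and 5.17-fold lower. The brightest probe (chr9:50429959-50432991), which spans a wider stretch, differed by -0.46 with tumor and -0.51 without tumor. Rps25 encodes a protein of the small ribosomal subunit. Its dimmer probe (chr9:44218247-44218306, plus strand) read -3.02 in Tlr3-deficient and -1.76 in WT cells with tumor, and -3.28 in Tlr3-deficient and -1.51 in WT cells without tumor, while the brightest probe (chr9:44216846-44216905) differed by -0.07 with tumor and -0.38 without tumor. The genotype difference of both genes thus depended on the probe that read it.

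For Ppp2r1b, a scaffold subunit of protein phosphatase 2A, the dimmer probe differed by -1.98 with tumor and -1.81 without tumor, and the brightest by -0.86 and -0.72. The Hspb2 dimmer probe was 3.72-fold higher with tumor and at least 3.88-fold higher without tumor. Both probes of these 2 genes moved the same way. For Dlat, the E2 subunit of pyruvate dehydrogenase, the probes moved opposite ways: the brightest differed by -0.36 with tumor and -0.35 without tumor and the other by 0.65 and 0.73. The mean of both Dlat probes turned the sign, to 0.14 with tumor and 0.19 without tumor. Rnf214, a RING finger gene, had 5 probes, whose differences ran from -0.87 to 0.56 with tumor and from -0.54 to 0.72 without tumor, with the same probe lowest and the same probe highest in each state.

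Among the 76 members with at least 2 probes above background on all 4 arrays, the differences of a gene's probes lay 1 log2 unit or more apart in 9 with tumor, in 18 without tumor and in 6 in both states (Pih1d2, Rnf214, Rps25, Pkm, Ppp2r1b and Dlat). The median range over a gene's probes was 0.394 with tumor and 0.466 without tumor. No such range was computed for genes off the segment, so it is not read as a trait of the segment.

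**Figure D5:**
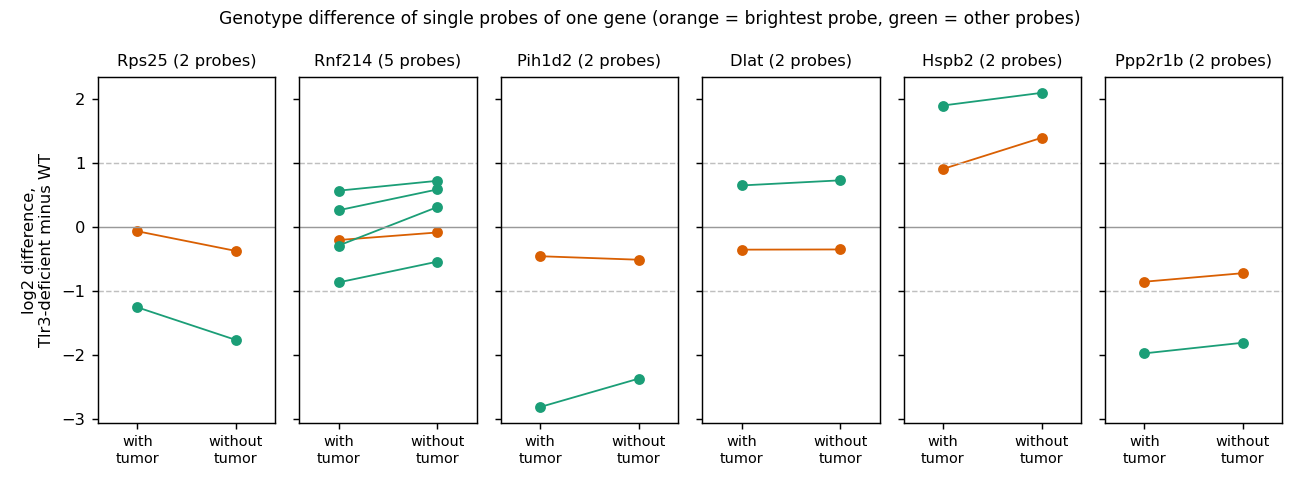
Log2 difference between Tlr3-deficient and WT cells (y axis) of each probe above background on at least 3 arrays in 6 members, with and without tumor (x axis); lines join the values of 1 probe. In Rps25 and Pih1d2 the dimmer probe lies below -1 in both states and the brightest does not, and the probes of Dlat lie on opposite sides of 0.

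The other called members are given by role, from lists of known genes of the segment. A single comparison called between 5.54% and 8.42% of all genes, so a few calls in a list are not read as a result about it. The share of all genes called in at least 1 comparison was not counted. Of 15 immune cell genes, all were members and 6 were called in some comparison. Between genotypes with tumor, 4 were higher in Tlr3-deficient cells and none lower, in a comparison that called 2.93% of all genes higher and 2.61% lower. Besides Il18 these were Cd3d, part of the T cell receptor complex, at least 2.72-fold, Pou2af1, a B cell transcriptional coactivator, 2.52-fold, and Pstpip1, a cytoskeletal adaptor of blood cells, 2.13-fold. With normexp Cd3d differed by 0.41, Pou2af1 by 0.73 and Pstpip1 by 0.38, all under 2-fold. Pou2af1 read -2.39 in Tlr3-deficient and -3.72 in WT cells with tumor. Without tumor the only called gene of the list was Il18, and the median of the list was 0.22 with tumor and -0.0047 without tumor, beside -0.04 for all genes in each state. B and plasma cell markers, 5 of 5 above background on both tumor arrays, summed to 19.5 times the 75th percentile in Tlr3-deficient and 8.16 times in WT cells with tumor, of which Igj, the joining chain of secreted antibodies, made up 10.73 and 0.47 times. T and NK cell markers other than Cd3d summed to 0.39 times in Tlr3-deficient and 0.35 times in WT cells with tumor. Among them Cd3e went the other way, at 0.0957 and 0.128 times, and Cd3g was not well above background on any array. The part of these cells in the result was not tested.

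Of 13 adhesion and surface genes, 12 were members. Besides Layn, 1 was called between genotypes: Mcam, an adhesion molecule of endothelial and smooth muscle cells, read 1.41 in Tlr3-deficient and 0.80 in WT cells with tumor, and 1.78 in Tlr3-deficient and 0.76 in WT cells without tumor, differences of 0.61 and 1.02. Endothelial markers, 5 of 5 above background on each array, summed to 24.5 times the 75th percentile in Tlr3-deficient and 14.1 times in WT cells with tumor, and to 22.2 and 13.9 times without tumor. Among 13 cytoskeleton genes, Tagln, an actin-binding protein of smooth muscle, read 2.34 in Tlr3-deficient and 2.12 in WT cells with tumor, and 3.28 in Tlr3-deficient and 1.99 in WT cells without tumor, so that its difference was 0.22 with tumor and 1.29 without tumor. Fibroblast and smooth muscle markers, 6 of 6 above background on each array, summed to 37.4 and 37.0 times in Tlr3-deficient and WT cells with tumor, and to 67.2 and 48.0 times without tumor. The sum without tumor was carried by the collagens, with Col1a2 at 24.2 times in Tlr3-deficient and 12.1 times in WT cells, while Acta2, smooth muscle actin, stood at 14.1 and 16.8 times and Dcn, decorin, at 8.39 and 9.17 times. With tumor Acta2 stood at 13.5 times in Tlr3-deficient and 11.5 times in WT cells. The part of these cells in the values of Mcam and Tagln was not tested.

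No member was called in any comparison among the 9 mitochondrial energy genes or the 17 kinases, phosphatases and RNA factors. Since a single comparison called between 5.54% and 8.42% of all genes, lists of this size hold few calls in any case, and nothing is read from their absence. Cox5a, a subunit of cytochrome c oxidase, read 5.32 in Tlr3-deficient and 5.35 in WT cells with tumor, and 5.35 in Tlr3-deficient and 5.63 in WT cells without tumor. Atp5l, a subunit of ATP synthase, differed by 0.11 with tumor and -0.32 without tumor, and Fdx1, ferredoxin 1, by 0.13 and -0.02. The median of the mitochondrial genes was 0.0031 with tumor and -0.24 without tumor. Of the 14 members among 15 other metabolic enzymes, Nnmt and Hykk alone were called, and Pkm, pyruvate kinase, differed by 0.53 with tumor and 0.04 without tumor at its brightest probe. With the mean of its 3 probes Pkm turned to -0.29 with tumor and -0.60 without tumor.

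Among 12 DNA damage and chromatin genes on the segment, Bcl9l was called in both states and Atm, the kinase that senses DNA double-strand breaks, in 1. Atm read -2.18 in Tlr3-deficient and -1.51 in WT cells with tumor, and -2.85 in Tlr3-deficient and -1.74 in WT cells without tumor, differences of -0.67 and -1.11. With the mean of its 2 probes Atm differed by -0.77 without tumor, under 2-fold. H2ax, the histone variant that Atm phosphorylates, differed by -0.11 with tumor and 0.69 without tumor. Of 21 protein folding, traffic and turnover genes, Hspb2 and Dnaja4 were called, each without tumor, in a comparison that called 8.26% of all genes. The mean of the 2 Dnaja4 probes differed by -0.72 without tumor, under 2-fold. Cryab, the small heat shock protein gene beside Hspb2, differed by 0.31 with tumor and 0.47 without tumor.

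Called between genotypes in a single state were 8 members with tumor and 17 without tumor. The comparisons called 5.54% of all genes with tumor and 8.26% without tumor, and 1.04% the same way in both. The share of all genes called in a single state was not counted, so these counts are not read as a result about the segment. With tumor, besides those named, the cDNA 5830462O15Rik was at least 12.4-fold higher and Fxyd2, a regulatory subunit of the sodium pump, 3.17-fold higher in Tlr3-deficient cells. Trim29, a tripartite motif protein, was 3.54-fold lower and Apoc3, an apolipoprotein that inhibits lipoprotein lipase, at least 3.46-fold lower. Apoc3 was well above background in WT cells with tumor alone (-3.54), and Apoa1, Apoa4 and Apoa5 of the same gene cluster were not well above background on any array. Without tumor, the largest differences were those of AK049762, at least 4.95-fold higher, and LOC101055971, at least 4.18-fold higher, each well above background in Tlr3-deficient cells without tumor alone. Of the 17, 14 were higher and 3 lower (Atm, Dnaja4 and AY074887), and all 17 use the array that goes against its label of female. Over all genes that comparison called 5.91% higher and 2.35% lower.

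Rec114 and Sln were called in opposite directions in the 2 states. Rec114, needed for meiotic DNA breaks and named 2410076I21Rik on the array (chr9:58500683-58500742, minus strand), read -4.14 in Tlr3-deficient and -2.27 in WT cells with tumor, and -1.89 in Tlr3-deficient and -4.41 in WT cells without tumor. Sln encodes sarcolipin, an inhibitor of the muscle calcium pump (chr9:53701574-53701633, plus strand). Sln read -4.94 in Tlr3-deficient and -3.53 in WT cells with tumor, and -3.18 in Tlr3-deficient cells without tumor, and was not well above background in WT cells without tumor (-5.41). In both genes the genotypes overlapped across the 4 arrays.

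The comparisons of mice with and without tumor were not used to choose the segment, although they share their arrays with the genotype differences. The one in Tlr3-deficient cells uses the array without tumor that goes against its label of female, so tumor and sex cannot be told apart there. In Tlr3-deficient cells 20 of 222 members tested differed by at least 2-fold, 11 higher and 9 lower with tumor, or 9.01% beside 8.42% of all 17986 genes (4.54% higher and 3.88% lower). In WT cells it was 16 of 220, 15 higher and 1 lower, or 7.27% beside 7.14% of all 17813 genes (5.57% higher and 1.57% lower). After quantile normalization the split in WT cells was 11 higher and 4 lower. The authors' value table gave 14 higher and 4 lower. Both shares lay near those of all genes and are not read as a result about the segment. Of the 12 members called between genotypes in both states, Tmprss13 alone was also called between mice with and without tumor. Of the other 11, Hykk, Nxpe4 and TC1634701 were not well above background on either Tlr3-deficient array and could not be compared there. Il18 was 1.77-fold higher with tumor in Tlr3-deficient and 1.67-fold higher in WT cells, under the threshold, and Nnmt differed by -0.19 and -0.18 log2 units.

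Higher with tumor in both genotypes were 6 of the 229 members, and none was lower in both, beside 1.35% of all genes higher and 0.342% lower in both. Jaml, an adhesion molecule of neutrophils and other leukocytes named Amica1 on the array, read -2.07 with and -4.15 without tumor in Tlr3-deficient cells, and -1.45 with and -3.43 without tumor in WT cells, differences of 2.09 and 1.97. Il10ra, the interleukin-10 receptor alpha chain, read -2.71 with tumor in Tlr3-deficient cells, where it was not well above background without tumor (-5.47), and -2.65 with and -4.79 without tumor in WT cells. It was at least 5.36-fold higher in Tlr3-deficient and 4.42-fold higher in WT cells. Both tumor arrays lay above both arrays without tumor for Jaml and Il10ra, as for 21.1% of all genes, and lay below them for 21% of all genes. Neutrophil markers, 6 of 6 above background on both tumor arrays, summed to 68.2 times the 75th percentile with and 3.30 times without tumor in Tlr3-deficient cells, and to 102 times with and 2.82 times without tumor in WT cells; the receptors Csf3r and Cxcr2 were not well above background without tumor. The part of these cells in the result was not tested.

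Pou2af1 read -2.39 with tumor in Tlr3-deficient cells, where it was not well above background without tumor (-4.97), and -3.72 with and -4.98 without tumor in WT cells. It was at least 6.01-fold higher in Tlr3-deficient and 2.40-fold higher in WT cells. B and plasma cell markers summed to 19.5 times the 75th percentile with and 5.57 times without tumor in Tlr3-deficient cells, and to 8.16 times with and 6.62 times without tumor in WT cells. Fxyd2 read -0.75 with and -3.67 without tumor in Tlr3-deficient cells, and -2.42 with and -3.55 without tumor in WT cells, which is 7.54-fold and 2.19-fold higher. Ccdc33, a coiled-coil gene, was 2.16-fold higher in Tlr3-deficient and 2.02-fold higher in WT cells, and Tmprss13, given above, completes the 6. The WT values of Pou2af1, Fxyd2 and Ccdc33 lay close to the threshold and fell under it after quantile normalization (0.96, 0.99 and 0.98). With the mean of its 2 probes Ccdc33 differed by 0.42 in Tlr3-deficient and 0.74 in WT cells, under 2-fold in each.

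In 1 genotype alone, several members passed 2-fold with tumor. In Tlr3-deficient cells 5830462O15Rik was at least 11.0-fold higher, Cd3d at least 2.41-fold, Elmod1, a GTPase-activating protein of the Arl family, at least 2.32-fold, Pstpip1 2.29-fold and Fxyd6, a sodium pump regulator, 2.10-fold higher. Fxyd6 was 1.97-fold higher in WT cells, just under the threshold. AK049762 was at least 5.53-fold lower with tumor in Tlr3-deficient cells, LOC101055971 at least 4.68-fold, 2900052N01Rik 3.60-fold and Peak1, a cytoskeletal pseudokinase, 2.42-fold lower. All these differences in Tlr3-deficient cells use the array that goes against its label of female, and AK049762 and LOC101055971 were well above background on that array alone. In WT cells Dmxl2, a regulator of the vesicle proton pump, was 3.48-fold higher with tumor, Trim29 at least 3.42-fold, Apoc3 at least 3.09-fold, Mpzl3, an adhesion protein of the immunoglobulin superfamily, at least 2.99-fold, Nkapd1 2.21-fold and Arhgap20, a GTPase-activating protein, 2.08-fold higher. With the mean of all probes Arhgap20 differed by 0.02, Dmxl2 by 0.83 and Mpzl3 by 0.82 in WT cells, and Elmod1 by 0.72 in Tlr3-deficient cells, all under 2-fold. Arhgap20 was also under 2-fold after quantile normalization (0.997) and median centring (0.91). AY074887 was the 1 member lower with tumor in WT cells, 2.04-fold. That a member passed in 1 genotype and not in the other was not tested as a difference. In no comparison were 179 of the 229 members called.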

How the data were processed

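RNA of sorted alveolar type II cells was hybridised in 1 colour (Cy3) to 4 Agilent mouse arrays of design 014868, 1 per group, on 3 slides. The deposited processed signal was written by Agilent Feature Extraction (version 10.7.3.1), and is an intensity on a linear scale from which background and spatial trend had been removed, per the file headers. The flag for spots well above background is deposited per spot, per the file headers. The authors' own value table holds log2 values and served as an alternative, since its making is not described in the sources used here.

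Outlier spots (100 to 127 per array) were left out, no spot was saturated, spots of a probe were averaged, and log2 intensity was set relative to the 75th percentile of the array's gene probes. A gene was its probe with the highest mean, with coordinates on mm9 as in the array annotation. Names came through RefSeq accessions from a GRCm38 table, which served for nothing else, and matched 175 of 229 members; 54 kept the file's name. A gene was tested where either array read it above background, and called at 2-fold or more. The lowest signals well above background, which set the bounds, were -5.33 and -5.31 on the Tlr3-deficient and WT arrays with tumor and -5.13 and -5.17 without tumor.

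The members and gene lists were chosen with earlier results of these data known. Named are the members called in both genotype differences, up to 5 per direction and comparison, called members of the lists with examples by brightness, and the genes at the segment's ends; C130081A10Rik, Rec114, Sln and the genes whose probes disagree were also taken after their values were seen where these rules do not reach them. Slide 2 carries the Tlr3-deficient array without tumor and the WT array with tumor and the other slides 1 array each, so that slides and groups cannot be told apart. The number of arrays limits the precision. Alternatives were quantile normalization, median centring, normexp (limma 3.58.1 in R 4.3.3, offset 50), the mean of all probes, no filter, all 4 arrays above background, 42 to 58 Mb, array columns 52 to 85 and the value table. Other steps used Python 3.11.15, numpy 2.4.6 and pandas 2.3.3. The spot values of 1 member are not reported here.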

Additional observations from a re-analysis of the deposited data

Results flagged for a closer look

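Rec114 and Sln moved in opposite directions in the groups compared. The genotype difference of Rec114 was -1.87 log2 units with tumor and 2.52 without tumor, and its tumor difference was -2.25 in Tlr3-deficient and 2.14 in WT cells. The genotype difference of Sln was -1.41 with tumor and 2.23 without tumor, and its tumor difference was -1.76 in Tlr3-deficient and 1.89 in WT cells. Sln was not well above background in WT cells without tumor, so its values of 2.23 and 1.89 are raw differences against a dim signal. The differences between the groups were not tested, since each group has 1 array, and the genotype and tumor differences of a gene are made from the same 4 values. With the mean of all probes the genotype difference of Rec114 with tumor was -0.96 and that of Sln -0.71, both under 2-fold.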

How the results depend on the processing

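Of the 89 called differences of members set against the alternatives (37 in columns 52 to 85), none turned round. They were picked for being 2-fold or more, so a turned sign was unlikely. The signs of Dlat and of Pkm, which were not called, turned with the mean of all probes: the differences with tumor were 0.14 for Dlat and -0.29 for Pkm, against -0.36 and 0.53 at the brightest probe. In the order genotype difference with tumor, genotype difference without tumor, tumor difference in Tlr3-deficient and tumor difference in WT cells, the members called numbered 11, 14, 11 and 6 with normexp, and 11, 8, 12 and 7 over the 106 members read in array columns 52 to 85. With no filter on dim probes 36 were called between genotypes with tumor, 31 with tumor in Tlr3-deficient and 33 in WT cells, and over genes above background on all 4 arrays 10, 8 and 8. Members called the same way in both genotype differences numbered 7 with normexp, 7 over genes above background on all 4 arrays and 4 in columns 52 to 85. Their share stood at 3.06% to 5.86% of members against 0.573% to 1.74% of all genes over the alternatives on the same segment. Of the 89 called differences, 84 kept their call in the value table, 83 with quantile normalization and 80 with median centring. With the mean of all probes 69 did, and with normexp 38. Median centring moved the median of all genes to -0.14 between genotypes without tumor and to -0.15 with tumor in WT cells, and normexp to -0.16 and -0.15, from values within 0.04 of 0; called directions are relative to that shift. Dim probes carry only bounds, and 37 members were not above background on every array. No paired analysis was possible because each group has 1 array and the labels give no replicate numbers.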
